A study of Arabidopsis thaliana with 12 samples.

Results

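Transcript levels of 6 genes for organelle transcription and RNA-binding factors were followed in the flu mutant of Arabidopsis thaliana: AT5G55580 (mTERF9), AT2G30100, AT4G09040, AT3G08000, OSB1 (AT1G47720) and OTP70 (AT4G25270). They were picked by name, with their flu and WT values already known, and each is read by the 1 probe that the platform annotation gives to it alone. They are 6 of the 620 genes with a tested probe of their own, on arrays of 3439 probes. All 6 probes were tested, and none was lost to the filter on dim probes. Since the difference between flu and WT chose the members, that difference is given as a description. Where a member is said to pass or not to pass the threshold, this gives its place in the fit of all probes and is no independent test.

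The mutant plants carried the flu mutation, which affects FLU, a regulator of chlorophyll synthesis. The comparison plants were wild type (WT), and both were of the Landsberg ecotype. Both were harvested 30 min after return to light that followed 12 h of dark. Total RNA of each genotype was read on 6 arrays. The labels give no tissue, plant age, flu allele or number of plants. FLU itself has 0 probes in the platform annotation, and the genotype could not be checked on its transcript. A word search for green tissue genes reads only gene names and synonyms, and other such genes can be missed. It found LHB1B2, PSBW and PSBY with a tested probe of their own, and all 3 were above the intensity floor of 0.2496 on all 12 arrays. Their summed intensity was 32.8 to 39.3 in flu and 36.4 to 44.0 in WT. Root and pollen markers had 0 tested probes.

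Chloroplasts and mitochondria keep small genomes, and nearly all factors that transcribe, splice, edit and translate them are encoded in the nucleus and imported. Proteins of the mTERF family are built of helical repeats and bind organelle nucleic acids, and mTERF9 acts in plastids. Pentatricopeptide repeat (PPR) proteins bind organelle RNAs in a sequence-specific way, and OTP70 is a PPR protein needed for splicing of a plastid transcript. OSB1 binds single-stranded DNA in mitochondria and limits recombination of their genome. AT4G09040 and AT3G08000 were chosen as proteins of the RNA recognition motif type, a common RNA-binding fold. The gene table gives no role for them, and this type was not checked. It gives no role for AT2G30100 either, so none is stated. The organelle location of AT2G30100, AT4G09040 and AT3G08000 was not checked.

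The arrays give linear intensities, here quantile normalised, with values under 0.2496, the 25th percentile, raised to that floor before log2 was taken. An intensity has no physical unit and is compared only for the same probe. Arrays 1 and 2, 3 and 4, and 5 and 6 of a group resembled each other most, and their mean was counted as 1 replicate, giving 3 pair means per group. All errors are SDs over those pair means or standard errors (SE) of a log2 difference from limma. The labels do not say whether arrays stand for separate plants, and the spread between them may be technical. In RNA from bulk tissue, fewer cells of a type and less RNA per cell cannot be told apart.

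As normalised, 3 of the 6 genes were higher in flu and 3 were lower. AT2G30100, AT4G09040 and AT5G55580 were higher in flu, by 4.74-fold, 3.85-fold and 2.37-fold. The value of AT4G09040 is set by the floor, since only 2 of 6 WT arrays were above it. AT3G08000, OTP70 and OSB1 were lower in flu, with WT above flu by 2.02-fold, 1.48-fold and 1.32-fold. For OTP70 and OSB1 the size or direction depended on a correction for probe number, given below. In the limma fit of all 3128 tested probes, 4 of the 6 were past an adjusted p of 0.05, 3 higher and 1 lower in flu. In that fit 38.9% of all probes were past it, 17.5% higher and 21.4% lower in flu. The median log2 difference of all tested probes was -0.04. Because the members were chosen on this contrast, their count is no evidence of a difference, and it says nothing about organelle factors in general.

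**Figure D1:**
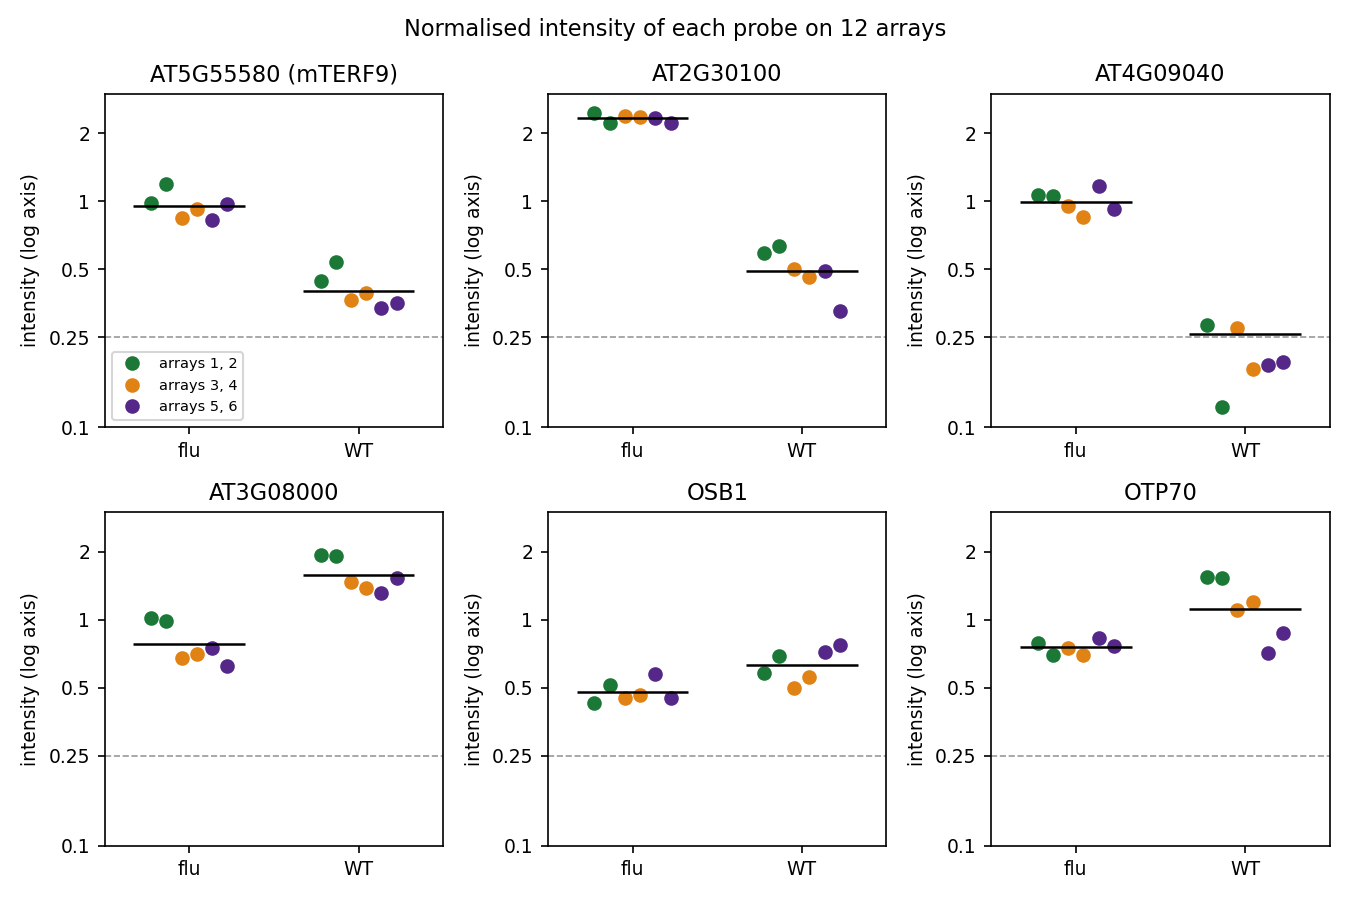
Normalised intensity (log axis) of the 6 probes on each of 6 flu and 6 WT arrays; colours mark the pairs of arrays, the black line is the mean of the pair means on the log2 scale, and the dashed line is the floor of 0.2496. The flu and WT points are apart for AT5G55580, AT2G30100, AT4G09040 and AT3G08000 and overlap for OSB1 and OTP70.

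AT2G30100 had the largest difference of the 6 at this floor, and AT4G09040 had a larger one with the floor at the 10th percentile, at log2 differences of 2.25 and 2.32. Its intensity had a lowest, median and highest value of 2.22, 2.35 and 2.45 on the flu arrays, against 0.328, 0.498 and 0.634 on the WT arrays. Every flu array stood well above every WT array. The mean was 2.33 ± 0.054 in flu and 0.502 ± 0.102 in WT (n = 3 pair means of each genotype, SD). The flu arrays were nearly level, while WT array 6 lay under the other WT arrays. The log2 difference was 2.25 (SE 0.17), and between arrays of the same number it ran between 1.81 and 2.76. Of all tested probes, 0.480% had a higher log2 difference.

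AT5G55580 encodes the plastid factor mTERF9. Its lowest, median and highest intensities were 0.825, 0.949 and 1.19 in flu, against 0.339, 0.379 and 0.540 in WT. The groups did not overlap, and all 12 values were above the floor. Arrays 1 and 2 held the highest values in both genotypes: their pair mean was 1.09 in flu and 0.491 in WT, where the other pairs had 0.884 and 0.8995 in flu and 0.379 and 0.347 in WT. The mean was 0.957 ± 0.113 in flu and 0.406 ± 0.076 in WT (n = 3 pair means of each genotype, SD), a log2 difference of 1.25 (SE 0.17). The difference varied little between arrays of the same number, between 1.14 and 1.46, although the level moved with the pair.

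A further probe is listed for both AT5G55580 and AT1G78930, and it went the other way. Its intensity was 0.183 to 0.318 on the flu arrays and 0.387 to 0.584 on the WT arrays, so that all flu arrays were below all WT arrays. The log2 difference was -0.79 (SE 0.12). It was above the floor on 4 of 6 flu arrays and on 6 of 6 WT arrays. The annotation does not say which of the listed genes it reads, and it is not counted as a probe of mTERF9.

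AT4G09040, of the RNA recognition motif type, was near the floor in WT. Its lowest, median and highest intensities were 0.852, 1.004 and 1.16 in flu, against 0.122, 0.191 and 0.283 in WT. All 6 flu arrays but only 2 of 6 WT arrays were above the floor, and no flu array came near the WT range. With the floor applied the mean was 1.002 ± 0.087 in flu and 0.260 ± 0.0088 in WT (n = 3 pair means of each genotype, SD), and the log2 difference was 1.94 (SE 0.11). The small WT spread comes from values raised to the floor. In the deposited intensities, with neither scaling nor floor, the flu mean of 0.972 was 4.16 times the WT mean of 0.234. A floor at the 10th percentile gave a log2 difference of 2.32.

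AT3G08000, also of the RNA recognition motif type, went in the opposite direction. Its lowest, median and highest intensities were 0.623, 0.728 and 1.02 in flu, against 1.31, 1.503 and 1.93 in WT. The highest flu array was below the lowest WT array. The mean was 0.793 ± 0.179 in flu and 1.59 ± 0.286 in WT (n = 3 pair means of each genotype, SD), a log2 difference of -1.01 (SE 0.21). As with AT5G55580, arrays 1 and 2 were the highest of both genotypes, at 1.02 and 0.984 in flu and 1.93 and 1.91 in WT. The 3 pair differences were therefore close to each other, at -0.94, -1.04 and -1.05, although the spread within each genotype was wide. The 2 genes chosen as of the RNA recognition motif type thus differed in direction on the same arrays.

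OSB1, the mitochondrial single-strand binding protein, differed less. Its lowest, median and highest intensities were 0.427, 0.457 and 0.578 in flu, against 0.497, 0.637 and 0.777 in WT. The groups overlapped: 2 flu arrays, 2 and 5, were above the lowest WT array. Each flu array was nevertheless below the WT array of the same number, by log2 differences of -0.79 to -0.14. The mean was 0.480 ± 0.029 in flu and 0.637 ± 0.109 in WT (n = 3 pair means of each genotype, SD). The log2 difference of -0.40 (SE 0.15) did not pass over all probes. It did so without WT arrays 3 and 4, at -0.53, and on values as deposited, at -0.48. It also passed with the 12 arrays counted as separate samples, where partner arrays count as independent. Leaving out any other pair of arrays did not make it pass, and with the probe number correction given below it was 0.31.

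OTP70, the plastid splicing factor, had its spread on the WT side. Its lowest, median and highest intensities were 0.699, 0.759 and 0.831 in flu, against 0.711, 1.16 and 1.54 in WT. The flu arrays were nearly level and the WT arrays fell apart by pair, with pair means of 1.54 for arrays 1 and 2, 1.16 for arrays 3 and 4, and 0.792 for arrays 5 and 6. WT arrays 5 and 6 were at the level of flu, so the groups overlapped. The 3 pair differences were -1.05, -0.67 and 0.02. The mean was 0.756 ± 0.038 in flu and 1.16 ± 0.375 in WT (n = 3 pair means of each genotype, SD). The log2 difference of -0.57 (SE 0.25; 95% interval -1.17 to 0.03) did not pass over all probes. Without WT arrays 5 and 6 it was -0.82 and passed, as it did with the 12 arrays counted as separate samples, where partner arrays count as independent. Leaving out any other pair of arrays did not make it pass, and with the probe number correction given below it was -0.02.

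All 6 flu arrays lay outside the WT range for 4 of the 6 genes, where 34.7% of all tested probes showed that. The pair means of the genotypes did not overlap for 5 of the 6, all but OTP70, where 50.5% of all tested probes showed that. The SD of the log2 pair means was larger in WT than in flu for 4 of the 6 genes, the exceptions being AT3G08000 and the floored AT4G09040. The same held for 72.2% of all tested probes, so the wide WT spread of OTP70 was in the common direction.

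**Figure D2:**
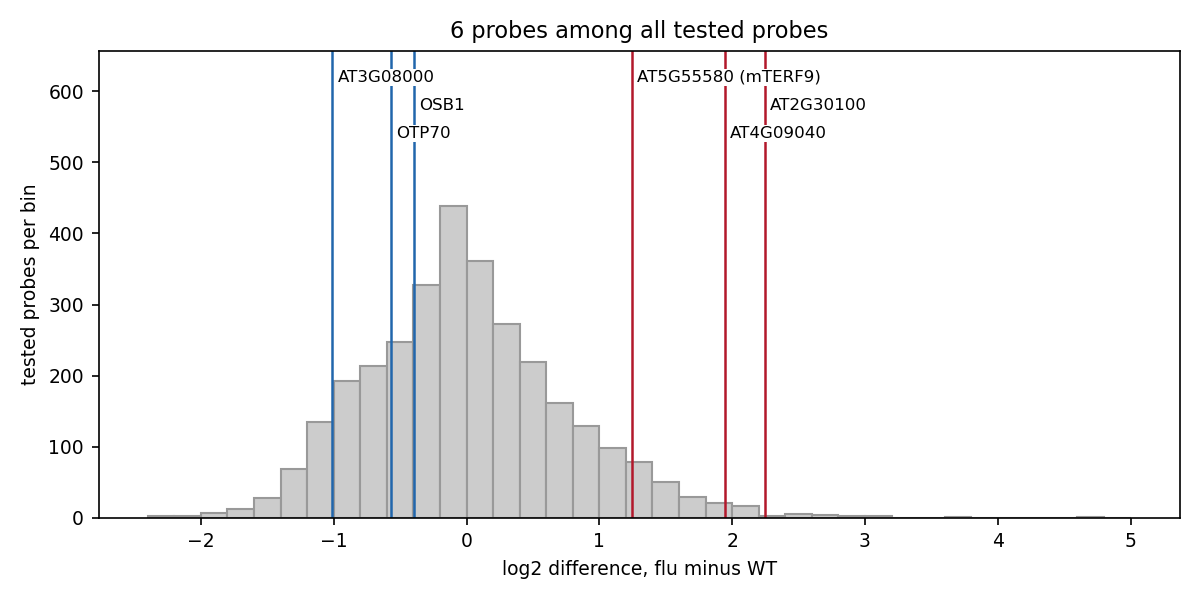
Number of tested probes (vertical axis) by log2 difference, flu minus WT (horizontal axis, bins of 0.2), over all 3128 tested probes; lines mark the 6 genes, red where higher and blue where lower in flu. AT2G30100 and AT4G09040 lie in the upper tail, and OSB1 and OTP70 lie inside the main body.

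The log2 differences on these arrays depend on probe number. Probes whose numbers lie a fixed period apart shift together, a period found in earlier work on the same data, and are called a class here. The members sit in classes of both signs. For AT5G55580, AT2G30100, AT4G09040 and AT3G08000 the other tested probes of the class had mean log2 differences of 0.34, 0.39, 0.37 and 0.26. In the same order, 8 of 10, 5 of 6, 3 of 5 and 5 of 6 of these probes were above 0. Such means rest on few and scattered probes, which ran from -1.15 to 2.04 in the class of AT2G30100. For OSB1 and OTP70 these class means were -0.70 and -0.55, with 10 of 11 and 8 of 10 other probes below 0. OSB1, at -0.40, and OTP70, at -0.57, were above or at the mean of their class, while AT3G08000 was lower in flu in a class that was mostly higher. The 24 probes nearest in number gave a similar picture where tested, with medians of 0.23 to 0.51 around the first 4 genes, -0.73 around OSB1 and -0.36 around OTP70.

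**Figure D3:**
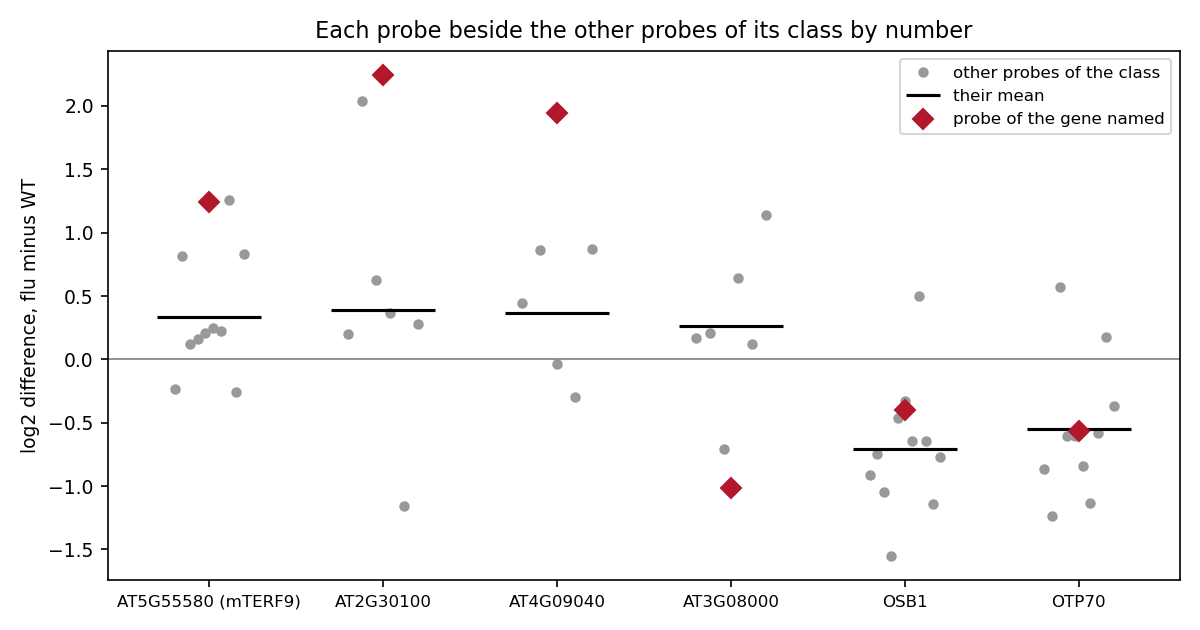
Log2 difference, flu minus WT (vertical axis), of each gene's probe (red diamond), of the other tested probes of the same class by number (grey points) and their mean (black line). The diamonds of AT5G55580, AT2G30100 and AT4G09040 are above their class means, that of AT3G08000 is below its class mean, and those of OSB1 and OTP70 lie within their classes.

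With the mean of the other probes of the class subtracted on each array, 4 genes kept their direction and their side of the threshold. The log2 difference became 1.95 (SE 0.15) for AT2G30100, 1.57 (SE 0.17) for AT4G09040 and 0.94 (SE 0.14) for AT5G55580. For AT3G08000 it became -1.21 (SE 0.22). Under this correction 35.9% of all tested probes passed, and 17.6% passed as higher in flu. OSB1 turned to 0.31 (SE 0.13) and OTP70 stood at -0.02 (SE 0.26), and neither passed. Subtracting the local median by probe number instead gave 0.44 for OSB1 and 0.16 for OTP70, and 0.68 for AT5G55580. The direction of OSB1 and the size or direction of OTP70 therefore depended on whether and how the probe number effect was removed, and the direction of the other 4 genes did not.

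**Figure D4:**
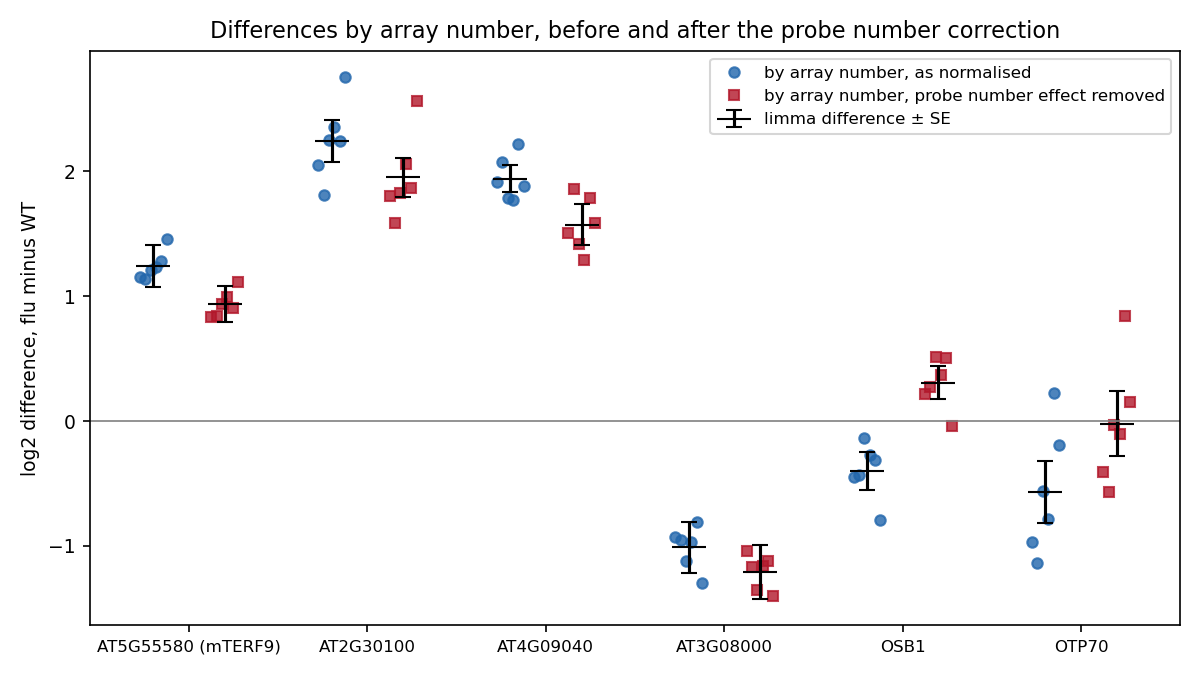
Log2 difference, flu minus WT (vertical axis), between arrays of the same number for each gene, as normalised (blue circles) and with the probe number effect removed (red squares); black marks are the limma difference with its SE over 3 pair means per group. AT2G30100, AT4G09040 and AT5G55580 stay above 0 and AT3G08000 below 0 on all 6 array numbers under both, whereas the limma difference of OSB1 crosses 0 and that of OTP70 moves close to 0, with single arrays of OTP70 between -0.57 and 0.84.

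Over the 12 arrays the 3 genes higher in flu correlated with each other at Pearson r of 0.94 to 0.98. These values mainly repeat the difference between genotypes. With each genotype's mean removed, r was 0.50 for AT5G55580 with AT2G30100, 0.03 for AT5G55580 with AT4G09040 and 0.18 for AT2G30100 with AT4G09040. The highest such value of the 15 pairs joined genes of opposite direction, 0.70 for AT5G55580 with AT3G08000, both of which were highest on arrays 1 and 2. OSB1 and OTP70, both lower in flu, had r of -0.32 within genotypes. Partner arrays resemble each other and all arrays share 1 normalisation, so these r are descriptions over 12 arrays.

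Among up to 309 genes with a probe of their own above the floor on every array, the 2 closest in log2 pattern over the 12 arrays were taken for each member. AT5G55580 was closest to AT4G19900 (r = 0.98) and AT5G46560 (0.96). AT2G30100 was closest to AT3G04210 and AT4G19900, each at r = 0.97, and AT4G09040 to AT2G30100 (0.98) and AT3G04210 (0.97). AT4G09040 was itself no candidate, being under the floor on some WT arrays, and is therefore not named for AT2G30100. AT3G08000 was closest to AT5G48440 and AT2G30320, both at r = 0.97. An r above 0.9 was reached by 14 genes with AT5G55580, 18 with AT2G30100, 20 with AT4G09040 and 26 with AT3G08000. No gene reached 0.9 with OSB1 or OTP70. OSB1 was closest to AGL26 (0.88) and AT4G08630 (0.86), and OTP70 to AT4G14050 (0.89) and AT3G54550 (0.87). With each genotype's mean removed, r with these partners, in the order named, was 0.79 and 0.55 for AT5G55580, 0.43 and 0.46 for AT2G30100, and 0.18 and 0.31 for AT4G09040. It was 0.87 and 0.82 for AT3G08000, 0.74 and 0.67 for OSB1, and 0.82 and 0.75 for OTP70.

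Other genes of organelle gene expression were searched for in 7 lists by gene name and locus. The other 6 lists (mTERF proteins, organelle transcription, RNA recognition motif, organelle DNA, organelle RNA processing and organelle translation) named 0 further genes with a tested probe of their own. The gene table used for the search gives names and synonyms but no descriptions, so genes of these families that it lists by locus alone were not found and are not counted. The list of PPR and transcript processing names had 4, of which 1 rose by limma and the other 3 did not pass, beside 36.8% called among all 620 genes. The word search for CRR also found CRR41 and NdhS, which serve the chloroplast NDH complex and are not PPR proteins. The median log2 difference was 0.82 over the 4 and 0.27 over the PPR proteins CRR21 and OTP85, against -0.04 over all genes.

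CRR41, an assembly factor of that complex, rose. Its lowest, median and highest intensities were 0.703, 0.756 and 0.916 in flu, against 0.187, 0.308 and 0.331 in WT, where 4 of 6 arrays were above the floor. Every flu array was above every WT array. Its log2 difference of 1.39 (SE 0.13) had a limma adjusted p of 0.0010, and the difference was 1.23 with the probe number effect removed.

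The other PPR proteins found by name were CRR21 and OTP85, both needed for editing of plastid transcripts. CRR21 had lowest, median and highest intensities of 0.984, 1.13 and 1.27 in flu, against 0.360, 0.652 and 1.15 in WT, so the groups overlapped. Its log2 difference of 0.74 (SE 0.32) did not pass (limma adjusted p = 0.124) and was 0.24 with the probe number effect removed. OTP85 was close to the floor in both, at 0.276 ± 0.022 in flu and 0.323 ± 0.084 in WT (n = 3 pair means of each genotype, SD; log2 difference -0.20, SE 0.20). NdhS, a subunit of the NDH complex, had a mean of 7.16 ± 0.765 in flu and 4.48 ± 2.64 in WT (n = 3 pair means of each genotype, SD). Its log2 difference of 0.90 (SE 0.43) did not pass (limma adjusted p = 0.1500), but passed with the probe number effect removed, at 1.46 (limma adjusted p = 0.044). Without WT arrays 3 and 4, both CRR21 and NdhS passed, at 1.10 and 1.38 (limma adjusted p = 0.0063 and 0.012).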

How the data were processed

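RNA of 6 flu and 6 WT samples was hybridised to arrays of 3439 probes. The authors deposited 1 intensity on a linear scale per probe and array, between 0 and 100; per the labels, which state no scanner, background correction or scaling, how these intensities were made is unknown here. Array sums were 3247 to 3350. Array medians were 0.426 to 0.442 in flu and 0.443 to 0.491 in WT, a difference that normalisation removes. The number of arrays limits the precision.

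Intensities were quantile normalised, raised to a floor at the 25th percentile (0.2496) and log2 transformed. Leaving out 311 probes that no array held above the floor left 3128. Deviations from the group mean correlated at 0.21 to 0.68 between partner arrays (1 and 2, 3 and 4, 5 and 6) and at -0.55 to -0.04 between other arrays of a group, so partners were averaged. Pair means of the same number in flu and WT deviated together (r = 0.26 to 0.46). A pairing of the samples by number is read from these values alone and from no label, and the main fit leaves it out. With the pair number as a further term (replicate block), the SE was 0.12 for AT3G08000 and 0.12 for AT5G55580, against 0.21 and 0.17. For AT4G09040 it was 0.13 against 0.11. Groups were compared with limma 3.58.1 in R 4.3.3 (lmFit, eBayes, two-sided, Benjamini-Hochberg over 3128 probes, threshold 0.05), with the group as the only term. The fit was run on simulated data with independent errors, and the probe number correction on a class effect planted in separate simulated noise. Neither run held the deviations shared by pairs of the same number, so they do not show how the fit behaves with those.

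Probes were named through the platform annotation: 692 have 1 gene, 870 several, and 1877 are not listed there. Of the 692, 690 matched the TAIR10.1 gene table. The members, the gene lists and the choice of pair means were made with earlier results of these data known. The genes named are the 6 members, all further genes of a list of up to 4, and the 2 genes most correlated with each member. Alternatives covered replicates, pairing, scaling, floor, filter, probe number, test and each pair of arrays left out; the fit that joins the block with the probe number correction was added after the data were seen. Sequences are not used here.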

Additional observations from a re-analysis of the deposited data

How the results depend on the processing

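Across 19 alternatives, AT5G55580, AT2G30100, AT4G09040 and AT3G08000 kept their direction and stayed past the threshold, with log2 differences of 0.68 to 1.39, 1.93 to 2.40, 1.42 to 2.32 and -1.53 to -0.87. In the same order, the highest limma adjusted p was 0.028, 0.0080, 0.0071 and 0.049. AT3G08000 was thus close to the threshold in some of them. OSB1 stood at 0.31 with the probe number effect removed (also with the replicate block added) and at 0.44 with the local median subtracted, and OTP70 at 0.16 with that median; neither passed there. OSB1 passed at -0.48 on values as deposited, and OSB1 and OTP70 passed at -0.40 and -0.57 with 12 arrays as separate samples, with or without the replicate block, where partner arrays count as independent. With pair means, the replicate block changed no member's call and called 1371 probes, against 1216 without it. With 12 arrays and the block, 1892 probes passed, 867 higher and 1025 lower in flu. Members lower in flu and past the threshold numbered 3 with 12 arrays and 2 on values as deposited, against 1. Of all 3128 tested probes, 940 were lower and past it with 12 arrays, and 1025 with the block added, against 669. On values as deposited, 825 of 3143 were. The member counts thus rose where more probes of any kind passed. Of the 4 other genes, 3 passed with 12 arrays and 2 with the local median removed, and 2 with the probe number effect removed, with or without the block, against 1. Of all 3128 tested probes, 1732 passed with 12 arrays and 1223 with the local median removed, against 1216. With the probe number effect removed 1122 passed, and 1291 with the block added. Leaving out each pair of arrays gave 840 to 1299 probes (375 to 566 higher, 465 to 733 lower), 1 to 2 lower members, 1 to 3 other genes, -0.53 to -0.28 for OSB1 and -0.82 to -0.34 for OTP70. The median of all probes was -0.12 on values as deposited, against -0.04. The cause of these changes was not tested. Probes near the floor, as AT4G09040 in WT, have compressed differences.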
